A study of Rattus norvegicus with 2 samples.

Results

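The genes of intestinal bile acid transport examined here were Slc10a2, Fabp6, Slc51a, Slc51b, Nr1h4 and Nr0b2. They were chosen by symbol, and the 6 genes are 6 of the 32883 in each of the 2 single-cell expression matrices. Each symbol was found once, and their identifiers were ENSRNOG00000037753 for Slc10a2, ENSRNOG00000003902 for Fabp6, ENSRNOG00000001765 for Slc51a, ENSRNOG00000028889 for Slc51b, ENSRNOG00000007197 for Nr1h4 and ENSRNOG00000007229 for Nr0b2. The cells were epithelium of the proximal jejunum, released with EDTA and dispase II, from 2 untreated male Sprague Dawley rats of 6 to 8 weeks and 180 to 200 g. Both rats were fasted overnight, so all values below belong to the fasted state. Each rat gave 1 droplet 3′ library, and the 2 libraries were labelled as replicates 1 and 2 of a single group, called rat 1 and rat 2 here. The study therefore held no treated group, and the comparisons below are between cell classes, between stages of enterocyte maturation and, without a test, between the rats.

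Bile acids are made in the liver, released into the gut to dissolve fat, and returned to the liver by enterocytes. Slc10a2 carries them with sodium across the brush border, Fabp6 binds them in the cytosol, and Slc51a and Slc51b are the obligate partners of the exporter on the basolateral side. Nr1h4, the farnesoid X receptor, is the nuclear receptor for bile acids, and Fabp6, Slc51a, Slc51b and Nr0b2 are known targets of it. Nr0b2 encodes a small repressor that lacks a DNA-binding domain. Active bile acid uptake is known as a property of the ileum, far downstream of the proximal jejunum.

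Barcodes were kept if they held over 5000 UMIs, of which at most 40% were mitochondrial, and between 200 and 5800 genes. By this rule 5988 of 12033 barcodes of rat 1 and 2230 of 8252 barcodes of rat 2 remained. The matrices held 99986348 and 66469907 UMIs. Clustering gave 4089 enterocyte-like cells in rat 1 and 1135 in rat 2, with median depths of 12076 and 24442 UMIs and median mitochondrial shares of 14.2% and 25.0%. The members were kept out of the clustering. Enterocytes were ranked within each rat by a villus score, the level of genes known from the villus tip minus that of genes known from its base, and cut into 3 equal sets called early, mid and mature. The sets did not sit at the same scores in both rats: the median score of the early set was -0.0144 in rat 1 and 1.19 in rat 2, and that of the mature set was 1.97 and 2.82. The other epithelial classes were stem-like, goblet/Paneth-like, goblet-like, enteroendocrine-like (EEC), tuft-like and CFTR High Expresser-like (CHE) cells. The last of these held 7 cells in rat 1 and 78 in rat 2, the EEC class 21 and 11, the tuft class 11 and 129 and the stem-like class 1215 and 34. The header of each matrix named another version of the counting software, so that version and rat cannot be told apart, and 28 barcodes occurred in both libraries.

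In both rats the exporter genes Slc51a and Slc51b and the repressor gene Nr0b2 were higher in enterocytes than in the other epithelial classes. The ratio of rat 1 to rat 2 over all enterocytes was 1.45 for Slc51a, 1.34 for Slc51b and 0.857 for Nr0b2, whereas Fabp6 was abundant in rat 1 and close to absent in rat 2. Slc10a2 was rare in both. Levels are in CPM, the UMIs of a gene scaled to the UMI total of the summed cells of a class. Mitochondrial UMIs count in this total, and their share was larger in rat 2. With mitochondrial genes left out, Slc51a was at 756 and 590 CPM in the enterocytes of rats 1 and 2. On that scale Slc51b was at 536 and 453 CPM and Nr0b2 at 43.6 and 57.8 CPM. Intervals are exact Poisson or binomial 95% intervals and cover counting error only, which leaves out the spread between animals.

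**Figure D1:**
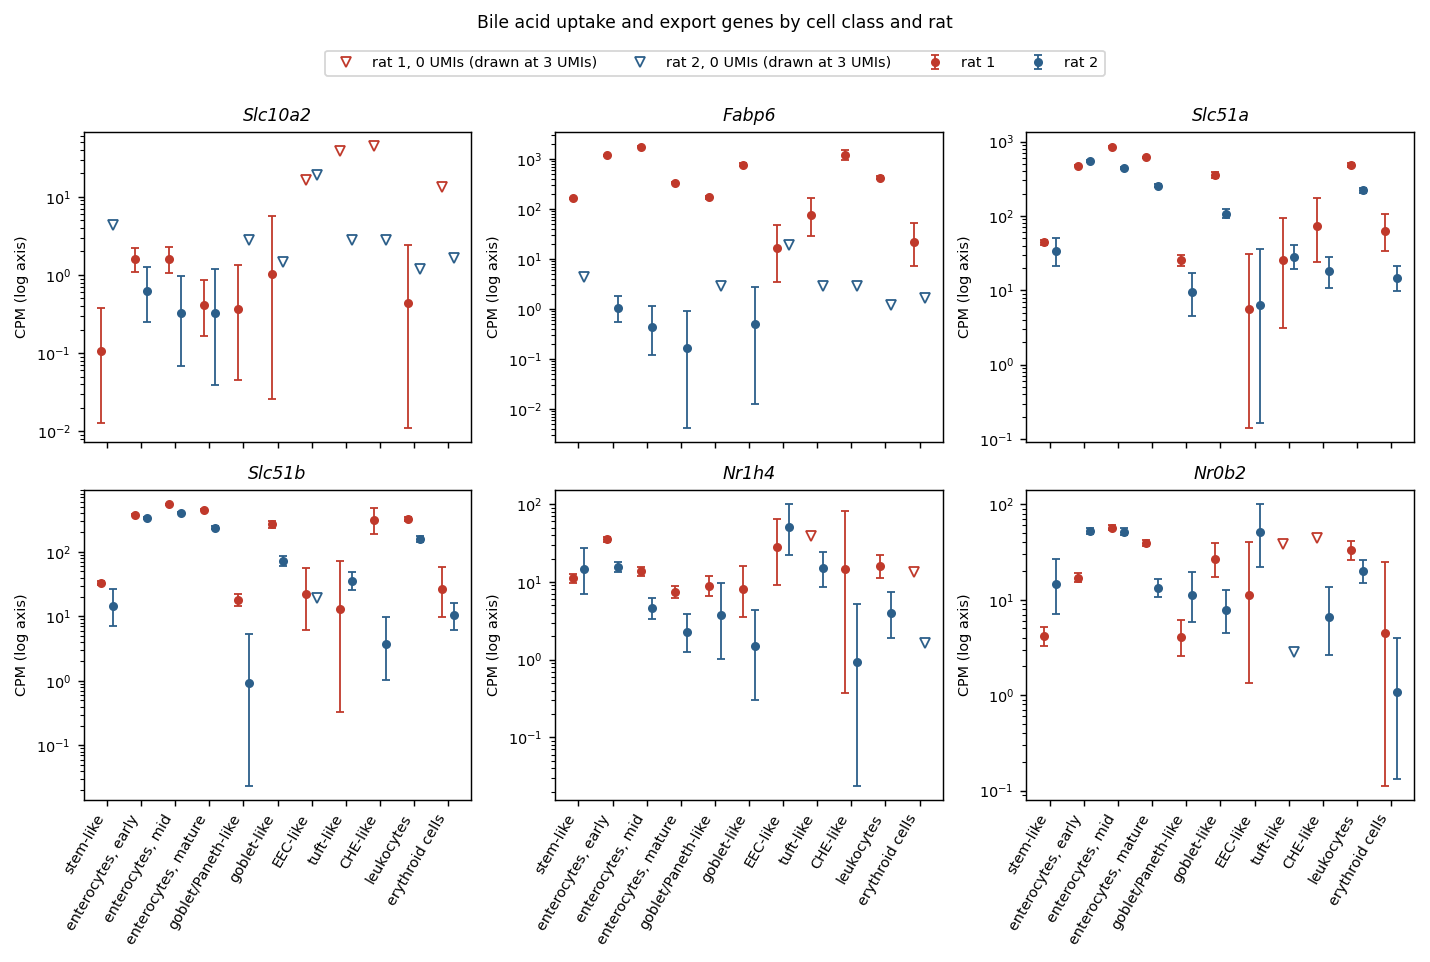
Level of each of the 6 genes (CPM, log axis) in each cell class of rat 1 and rat 2. Bars are 95% exact Poisson intervals of counting error, and open triangles mark classes with 0 UMIs, drawn at the level 3 UMIs would give. In the enterocytes of rats 1 and 2, Slc51a lay at 642 and 442 CPM, whereas Fabp6 lay at 1136 and 0.639 CPM.

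The class sums of both rats were tested in a single edgeR quasi-likelihood model over 9786 genes, with Benjamini-Hochberg adjustment over all of them. Slc10a2 did not pass the filter on low counts and was not tested. Of the 5 tested members, 3 were higher in enterocytes than in the mean of the other epithelial classes and 0 were lower. Among all genes tested 36.1% were called in this comparison, with 19.2% higher and 16.9% lower. The median log2 fold change was 3.60 over the 5 members and -0.09 over all genes. With the rat as a block, 4 of 5 members were higher, Fabp6 being added. Of all genes 47.5% were then called, 2413 of 9786 as higher and 2239 as lower.

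**Figure D2:**
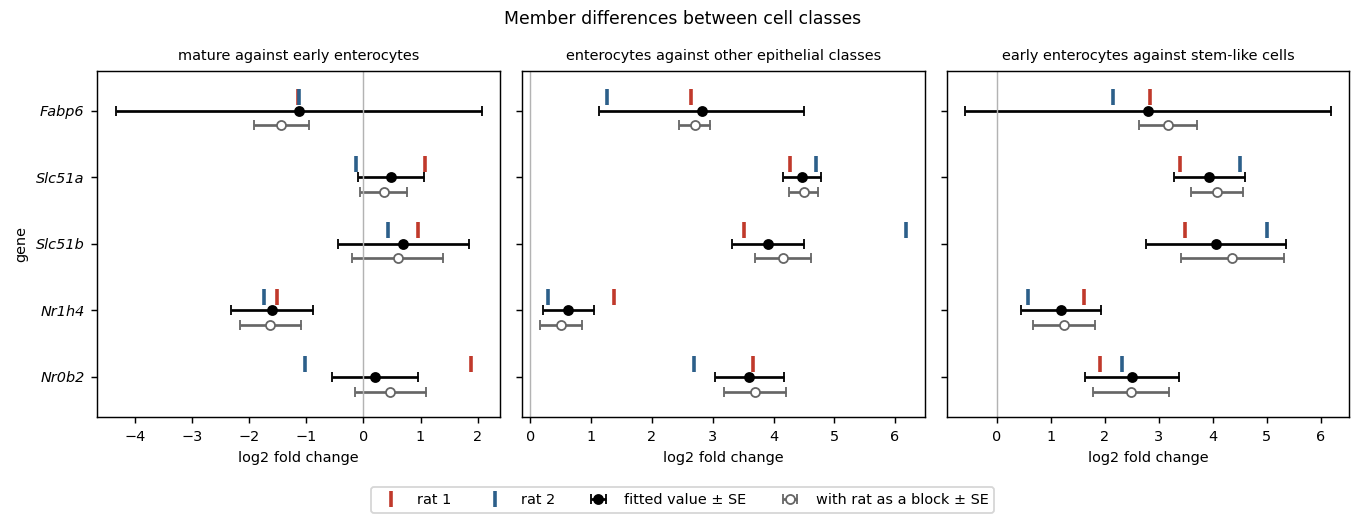
Log2 fold change of the 5 tested genes in 3 comparisons of cell classes. Black points are edgeR estimates with bars of 1 standard error, open grey points the same with the rat as a block, and ticks the value in each rat. Slc51a lay at 4.48 in enterocytes against other epithelial classes, and its ticks for mature against early enterocytes fell on both sides of 0.

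The exporter genes were abundant in the enterocytes of both rats. Slc51a was at 642 CPM in the enterocytes of rat 1 (35884 UMIs) and 442 CPM in those of rat 2 (11746 UMIs). In stem-like cells it was at 43.9 and 33.7 CPM, in tuft-like cells at 25.8 and 28.3 CPM, and in CHE-like cells at 74.0 and 18.0 CPM. Each of these values was below that of every enterocyte set of the same rat. Its log2 fold change in enterocytes against other epithelial classes was 4.48 ± 0.31 (SE, 2 rats; edgeR adjusted p = 4.60e-07), with 4.28 in rat 1 and 4.70 in rat 2.

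Slc51b, which encodes the smaller chain of the exporter, was at 455 CPM in the enterocytes of rat 1 (25415 UMIs) and 339 CPM in those of rat 2 (9018 UMIs). In stem-like cells it was at 32.7 and 14.7 CPM, and in goblet/Paneth-like cells at 18.0 and 0.941 CPM. The log2 fold change against other epithelial classes was 3.91 ± 0.60 (SE, 2 rats; edgeR adjusted p = 1.64e-04). Its value in rat 2 alone, 6.19, was larger than the 3.52 of rat 1, and in rat 2 the EEC class held 0 UMIs of Slc51b, so the former depends on the prior count.

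Both chains are needed for transport, and most enterocytes held UMIs of both. After each cell was thinned to 5000 UMIs, 75.6% of the enterocytes of rat 1 and 57.6% of those of rat 2 had at least 1 UMI of each gene, and 5.16% and 12.0% had neither. In stem-like cells the share with both was 3.37% in rat 1 and 2.94% in rat 2. The ratio of Slc51a to Slc51b UMIs was 1.41 (1.39 to 1.43) in the enterocytes of rat 1 and 1.30 (1.27 to 1.34) in those of rat 2. This ratio was not constant along the villus score. It ran from 1.26 in early to 1.56 in mid and 1.37 in mature enterocytes of rat 1, and from 1.60 in early to 1.08 in both mid and mature enterocytes of rat 2. The order of the sets therefore differed between the rats.

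UMIs of the exporter genes also occurred in cells that should lack them. In erythroid cells, with median depths of 5460.5 and 7361 UMIs, 6 of 28 cells in rat 1 and 17 of 243 in rat 2 held Slc51a UMIs after thinning, against 89.2% and 78.1% of enterocytes. The leukocyte class held it in 68.2% of 176 cells in rat 1 and 25.3% of 253 cells in rat 2. Fabp1, the most abundant enterocyte fatty acid-binding protein gene, was at 34838 and 12059 CPM in the same leukocyte classes. Set against Fabp1, Slc51a had 13.9 UMIs per 1000 Fabp1 UMIs in leukocytes and 18.4 in mid enterocytes of rat 1, and 18.4 and 12.8 in the same classes of rat 2. In goblet-like cells, where Slc51a reached 356 CPM in rat 1 and 107 CPM in rat 2, this ratio was 14.6 and 18.0. As CPM, Slc51a was at 62.6 and 14.7 in the erythroid cells of rats 1 and 2 and at 483 and 222 in the leukocyte class. Fabp1 was at 4223 CPM in the erythroid cells of rat 1. The source of the leukocyte and goblet-like values, free enterocyte RNA included, was not tested. The tuft class of rat 2 differed, since it held 30419 CPM of Fabp1 but only 0.930 Slc51a UMIs per 1000 Fabp1 UMIs.

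Slc10a2, the uptake carrier, was found in few cells. Rat 1 held 69 UMIs in its enterocytes, which is 1.24 CPM, and rat 2 held 12 UMIs, which is 0.451 CPM. They were divided as 32 UMIs in early, 30 in mid and 7 in mature enterocytes of rat 1, and as 7, 3 and 2 in rat 2. In both rats the mature set thus had the fewest UMIs, but its total over all genes was also the smallest. As CPM the sets lay at 1.59, 1.59 and 0.415 in rat 1 and at 0.618, 0.329 and 0.325 in rat 2. The ratio of mature to early was 0.261 (0.0971 to 0.601) in rat 1 and 0.527 (0.0534 to 2.77) in rat 2. A lower level in the mature set was therefore not shown in rat 2. The other epithelial classes held 5 UMIs in all in rat 1 and 0 in rat 2, where 0 counts allow up to 0.610 CPM. After thinning, 0.660% of the enterocytes of rat 1 and 0.264% of those of rat 2 had a UMI. In erythroid cells 0 UMIs were found, which in rat 1 allows up to 16.5 CPM and in rat 2 up to 2.01 CPM. These limits are too high to set the enterocyte levels against. The erythroid cells of rat 1 numbered only 28.

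Fabp6, the cytosolic bile acid carrier, had the largest ratio between the rats of the 6 genes. Rat 1 held 63458 UMIs in its enterocytes, or 1136 CPM, and rat 2 held 17, or 0.639 CPM (0.372 to 1.02). The ratio of the rats was 1777 (1110 to 3051). Over all 2230 retained cells of rat 2 there were 18 Fabp6 UMIs in 11 cells, with at most 4 in any cell. In rat 1, the stem-like class held 3104 Fabp6 UMIs (164 CPM) and the goblet/Paneth-like class 923 (171 CPM). The levels in the smaller classes of rat 1 rested on few cells: 80 of 81 UMIs in CHE-like cells and 426 of 756 in goblet-like cells came from 1 cell each. Outside the epithelium, the leukocyte class of rat 1 held 981 UMIs, or 424 CPM, which is above the stem-like and goblet/Paneth-like levels, and the erythroid cells held 5 UMIs, or 22.3 CPM. Per 1000 Fabp1 UMIs there were 12.2 Fabp6 UMIs in leukocytes, 38.6 in mid enterocytes, 69.9 in stem-like and 189 in goblet/Paneth-like cells of rat 1. The source of these levels outside enterocytes, free enterocyte RNA included, was not tested. Against other epithelial classes the log2 fold change was 2.82 ± 1.69 (SE, 2 rats; edgeR adjusted p = 0.218), and 2.70 with the rat as a block (edgeR adjusted p = 3.57e-07). In rat 2 the other classes held 1 UMI in all, so this value rests on rat 1.

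With 1 library per rat, the difference between the rats has no test, and its place among all genes is given as a description. The genes taken were the 8734 with at least 100 UMIs in the enterocytes of rat 1 or of rat 2. Among them Fabp6 ranked first for a higher level in rat 1 on the log2(CPM ratio) scale, at 10.80, where the median gene was at 0.28. A 10-fold higher level in rat 1 was found for 97 genes, or 1.11%, and a 10-fold lower level for 41, or 0.469%. A gene could enter through the rat where it was high, and rat 1 held more enterocyte UMIs, at 55858840 against 26596602. The counts in the 2 directions are therefore not on an equal footing. Of the 5 members that reached this minimum, Fabp6 was past 10-fold and the others were not, lying at 1.17 for Nr1h4, 0.54 for Slc51a, 0.42 for Slc51b and -0.22 for Nr0b2. The genes next to Fabp6 were Nts, which encodes neurotensin, at 9.14, and Plb1, a brush border phospholipase, at 8.26. At the other end stood AABR07060872.1 at -11.61, Pdx1 at -8.59, the immunoglobulin gene Ighm at -8.14 and Onecut2 at -8.13. Pdx1 and Onecut2 encode transcription factors of the proximal small intestine. Pdx1 had 4 UMIs in the enterocytes of rat 1 and 734 in those of rat 2, and Onecut2 8 and 1067. The Paneth defensin genes Defa8 and Defa24 were also higher in the enterocyte sums of rat 1, at 26.5 against 0.338 CPM and 54.7 against 1.02 CPM. Both libraries carried the label proximal jejunum, and the part of the site sampled along the gut in these differences was not tested.

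**Figure D3:**
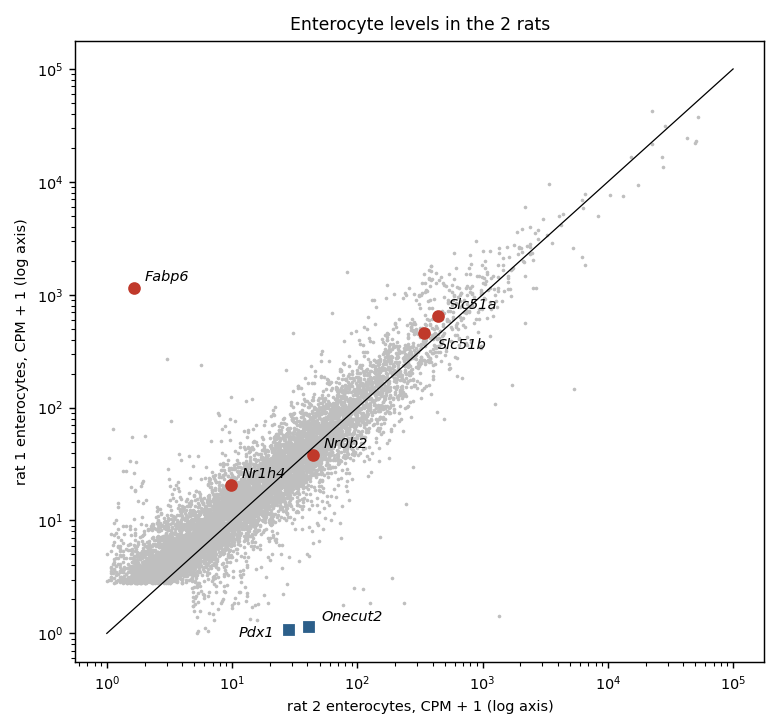
Level in enterocytes of rat 1 (vertical axis) against rat 2 (CPM + 1, both axes log) for 8734 genes with at least 100 UMIs in rat 1 or in rat 2. The line marks equal levels, the members are red and Pdx1 and Onecut2 are blue squares. Fabp6 lay farther from the line toward rat 1 than any other gene. Slc10a2 is not drawn because its 69 UMIs in rat 1 and 12 in rat 2 fell under the minimum.

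Within rat 1, Fabp6 was concentrated in a minority of enterocytes. After thinning to 5000 UMIs, 74.1% of enterocytes had 0 Fabp6 UMIs, 340 cells (8.31%) had 10 or more and 58 had 100 or more. The 340 cells held 91.1% of the Fabp6 UMIs, and the highest cell had 690, which is 13.8% of its thinned UMIs. The variance of the UMIs per cell was 141 times their mean for Fabp6, against 1.67 times for Slc51a and 1.74 times for Slc51b. Cells of high level were spread over the villus score rather than gathered at one end of it. In 10 equal sets of cells ordered by the score, Fabp6 was at 501 CPM in the first, 2419 in the fourth and 35.0 in the last. The share of cells with 100 or more UMIs was highest, at 3.18%, in the fourth and the fifth sets.

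**Figure D4:**
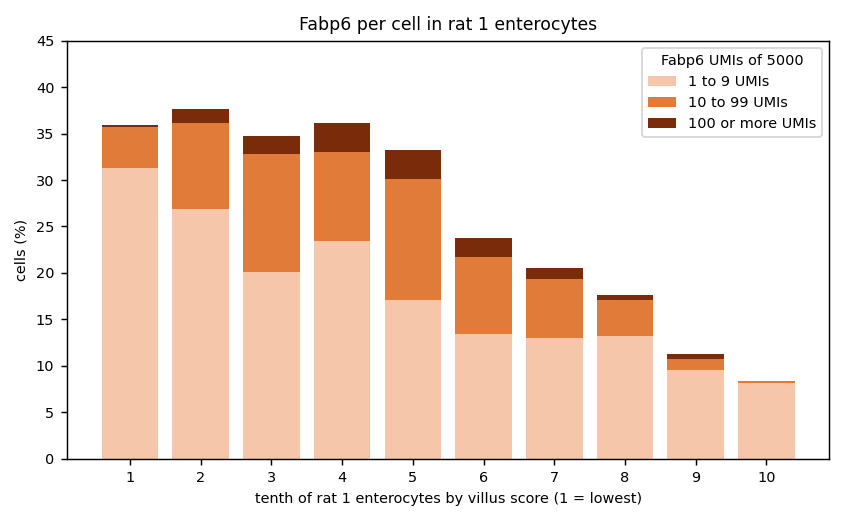
Percent of enterocytes of rat 1 with 1 to 9, 10 to 99 and 100 or more Fabp6 UMIs after thinning to 5000 UMIs, in 10 equal sets ordered by villus score from lowest to highest. The share with 100 or more was 3.18% in the fourth and the fifth sets, where the level was highest, and the level fell to 35.0 CPM in the last set.

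The 340 Fabp6-high cells were compared with the 3029 enterocytes of rat 1 without a Fabp6 UMI, as a description with no test because all come from 1 animal. Slc10a2 had 26 UMIs in the former and 28 in the latter, so that its level, with Fabp6 left out of the total, was 5.23 against 0.693 CPM. The ratio was 7.55 (4.25 to 13.4). Thus 26 of the 69 Slc10a2 UMIs fell in 8.31% of the enterocytes. The 26 UMIs came from all 3 sets, as 10 UMIs in early, 13 in mid and 3 in mature Fabp6-high cells. Cells without Fabp6 held 13, 11 and 4 in the same order. By set, the levels were 4.50 against 1.05 CPM in early, 5.69 against 0.833 in mid and 6.51 against 0.271 in mature enterocytes. The pooled ratio is thus not matched for villus score, and the mature values rest on 3 and 4 UMIs. Without the cells called doublets by Scrublet, an alternative chosen after the data were seen, 330 cells remained and the ratio was 7.07 (3.92 to 12.6).

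The exporter genes and the receptor gene were higher in the Fabp6-high cells by smaller ratios. The ratio was 1.46 (1.42 to 1.51) for Slc51a, 1.5 (1.44 to 1.55) for Slc51b, 1.49 (1.23 to 1.81) for Nr1h4 and 1.18 (1.02 to 1.36) for Nr0b2. The direction was the same for Slc51a in each set, with 439 CPM in cells without Fabp6 and 718 in Fabp6-high cells among early, 801 and 1075 among mid, and 595 and 909 among mature enterocytes. Slc51b followed the same order, with 345 and 612, 525 and 684, and 438 and 712 CPM. Weighted to the same place on the villus score, the log2 difference was 0.47 for Slc51b and 0.42 for Slc51a, ranks 85 and 129 of 5551 genes. It was 0.27 for Nr1h4 and 0.11 for Nr0b2, ranks 423 and 1624. The 5551 genes had at least 50 UMIs in the Fabp6-high cells or at least 1000 in the cells without Fabp6. In this weighting 8 of them were above 2-fold and 12 below it. The highest were Ccl20, a chemokine gene, at 3.31, and Ly6al at 2.74, and Plb1 was at 1.51. Ccl20 and Ly6al entered only through the Fabp6-high cells, with 261 and 125 UMIs there and 817 and 156 in the others. The count above 2-fold thus depends on this rule of entry. The lowest was Nts at -2.75, and the goblet genes Clca1 and Fcgbp were among the 12. Depth was close in both kinds of cells, the median being 12622 UMIs in Fabp6-high and 11878 in other early enterocytes, and 10 of the 340 were called doublets.

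Nr1h4, the bile acid receptor, had its highest enterocyte level in the early set of both rats. It was at 35.4, 13.7 and 7.46 CPM in early, mid and mature enterocytes of rat 1, and at 15.5, 4.61 and 2.28 CPM in the same sets of rat 2. In the stem-like class it was at 11.1 and 14.7 CPM. The EEC class held 27.8 CPM (5 UMIs) and 51.3 CPM (8 UMIs), which are wide-interval values of 9.02 to 64.8 and 22.2 to 101 CPM. Tuft-like cells of rat 2 held 16 UMIs in 129 cells, or 15.1 CPM, and 7.75% of them had a UMI after thinning, whereas the erythroid cells of both rats held 0 UMIs. Those of rat 2, at 243 cells, allow up to 2.01 CPM. Over all enterocytes against other epithelial classes the log2 fold change of Nr1h4 was 0.63 ± 0.42 (SE, 2 rats; edgeR adjusted p = 0.273).

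Nr0b2, the repressor, had enterocyte levels of 37.0 and 43.2 CPM in rats 1 and 2. It was at 4.17 and 14.7 CPM in stem-like cells. Tuft-like cells held 0 UMIs in both rats, which allows up to 3.48 CPM in rat 2. The EEC class held 2 UMIs in rat 1 and 8 in rat 2, the latter being 51.3 CPM (22.2 to 101) and not distinguishable from the enterocyte level at this depth. Against other epithelial classes Nr0b2 was higher in enterocytes by a log2 fold change of 3.60 ± 0.57 (SE, 2 rats; edgeR adjusted p = 2.63e-04), with 3.66 in rat 1 and 2.69 in rat 2.

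The onset of these genes was read from early enterocytes against stem-like cells. Slc51a was higher in early enterocytes by a log2 fold change of 3.94 ± 0.65 (SE, 2 rats; edgeR adjusted p = 0.00497), 3.39 in rat 1 and 4.50 in rat 2. It was the only 1 of the 5 tested members called, against 11.7% of all genes called, 3.78% as higher and 7.96% as lower. Slc51b, at 4.06 ± 1.30 (edgeR adjusted p = 0.0549), and Nr0b2, at 2.51 ± 0.86 (edgeR adjusted p = 0.0739), did not pass. With the rat as a block, 4 of 5 passed as higher. Of all genes 31% were then called, 997 of 9786 as higher and 2037 as lower. The 4 were Slc51a, Slc51b at 4.37 (edgeR adjusted p = 0.00291), Nr0b2 at 2.49 (edgeR adjusted p = 0.0152) and Fabp6 at 3.17 (edgeR adjusted p = 5.51e-04). Without the block Fabp6 was at 2.80 ± 3.39 (edgeR adjusted p = 0.621). In rat 2 its stem-like cells held 0 UMIs and its early enterocytes 12, so its value rests on rat 1. The stem-like class of rat 2 held 34 cells, and the early enterocytes of rat 2 lay at higher villus scores than those of rat 1. Nr1h4 was at 1.20 ± 0.74 (edgeR adjusted p = 0.308), and not called with the block.

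From early to mature enterocytes, 0 of the 5 tested members passed in edgeR, against 6.55% of all genes called, 3.19% as higher and 3.36% as lower. DESeq2 also called 0, and at an unadjusted p under 0.05 there was 1, Nr1h4. Its log2 fold change was -1.60 ± 0.72 (SE, 2 rats; edgeR adjusted p = 0.167), -1.52 in rat 1 and -1.75 in rat 2, and with the rat as a block it was -1.64 (edgeR adjusted p = 0.0278). With the sets cut on both rats together, it was -1.80 (edgeR adjusted p = 0.0406). Fabp6 was at -1.14 ± 3.21 (edgeR adjusted p = 0.859) and at -1.44 with the block (edgeR adjusted p = 0.0328). Its value in rat 2 rests on 12 UMIs in early and 1 in mature enterocytes and depends on the prior count. With the block 2 of 5 members were thus called, both lower. Of all genes 30.9% were then called, 1505 of 9786 as lower and 1517 as higher.

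The other 3 members did not pass from early to mature, and Slc51a and Nr0b2 differed in sign between the rats. Slc51a was at 473, 850 and 613 CPM in early, mid and mature enterocytes of rat 1, and at 544, 439 and 256 CPM in those of rat 2. Its log2 fold change was 0.48 ± 0.58 (edgeR adjusted p = 0.620), 1.07 in rat 1 and -0.13 in rat 2. Slc51b was at 376, 545 and 449 CPM and at 339, 408 and 237 CPM, and highest in the mid set of both rats. Its log2 fold change was 0.70 ± 1.14 (edgeR adjusted p = 0.730), 0.95 in rat 1 and 0.43 in rat 2. Nr0b2 was at 17.0, 56.6 and 39.1 CPM in rat 1 and at 52.5, 51.9 and 13.3 CPM in rat 2. Its values were 1.88 in rat 1 and -1.02 in rat 2, together 0.21 ± 0.75 (edgeR adjusted p = 0.896). Without TMM scaling, which moved the median of all genes from -0.02 to -0.80, all 3 were negative, at -0.23, -0.06 and -0.40 in the same order. On that scaling Slc51a, Slc51b and Nr0b2 lay above the median gene, as they did on the TMM scale.

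Because the sets sat at different scores in the 2 rats, the levels were also read at equal villus scores. Nr1h4 was then closer in the rats at low scores, with 24.9 CPM (rat 1) against 22.6 CPM (rat 2) for scores of 0.5 to 1, and with 12.3 and 11.6 CPM for scores of 1 to 1.5. At higher scores the values lay further apart, with 7.54 and 4.02 CPM at 2 to 2.5 and 5.27 and 2.69 CPM at 2.5 to 3. These rest on 45 and 23 UMIs and on only 8 and 13 UMIs, and no interval was computed for them. The median mitochondrial shares of these cells also differed, at 12.1% and 25.2% and at 8.88% and 29.8%, and mitochondrial UMIs count in the total. Nr0b2 was at 19.4 and 26.3 CPM at scores of 0 to 0.5, at 57.3 and 57.7 CPM at 1 to 1.5, and at 31.0 and 13.6 CPM at 2.5 to 3. Slc51a was at 597 and 525 CPM at 0 to 0.5, and at 863 and 567 CPM at 1 to 1.5. Below a score of 0, which too few enterocytes of rat 2 reached to be read, Slc51a was at 110 CPM and Nr0b2 at 1.65 CPM in the lowest range of rat 1, where Nr1h4 was at 22.6 CPM. Fabp6 was at 1276, 2336 and 1919 CPM in rat 1 for the 3 ranges from 0 to 1.5, and at most 3.18 CPM in any range of rat 2. These are sums over cells of 1 animal each and carry no test.

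**Figure D5:**
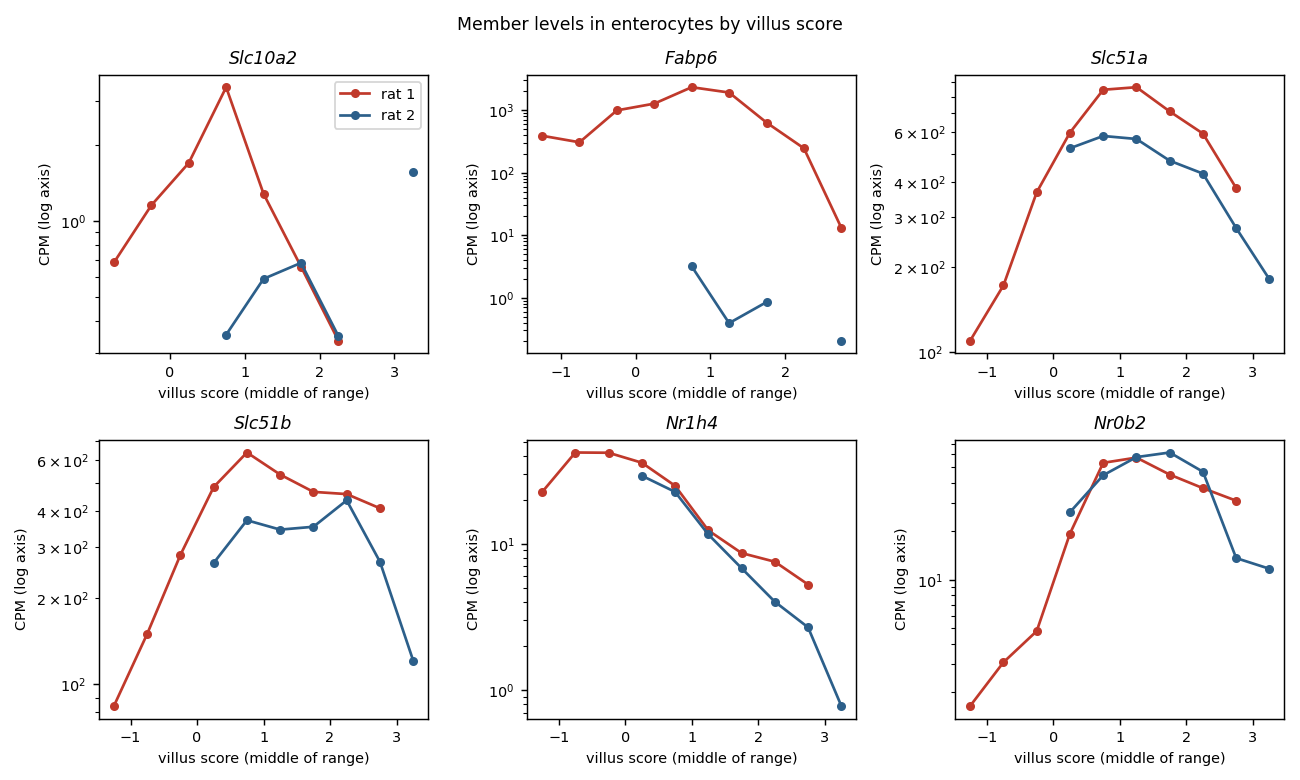
Level of each gene (CPM, log axis) against villus score in ranges 0.5 wide with at least 20 enterocytes, for rat 1 and rat 2. Ranges with 0 UMIs are not drawn. The curves of Nr1h4 lay at 24.9 and 22.6 CPM for 0.5 to 1 and at 5.27 and 2.69 CPM for 2.5 to 3. The latter 2 values rest on 8 and 13 UMIs. The curves of Fabp6 did not approach each other.

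The start-site windows of the members were searched for an inverted repeat of the kind that the farnesoid X receptor with its RXR partner is known to bind. The letters were GGTNANTNACC, which read the same on both strands, and they were chosen after the sequences had been seen. RefSeq windows of 250 bases before to 50 after the start were held for 5 of the 6 genes on the GRCr8 build, and Nr1h4 was not among them. The letters occurred in 2 of the 5, Fabp6 and Slc51b, and in 90 of 33469 windows of 300 bases, or 0.269%. Because the letters were chosen with the sequences in view, the 2 of 5 cannot be set against this share as a test, and no enrichment is read from it. The 2 matches are shown because these 2 genes differ in their pattern across the rats while both carry a match. The matched letters are in capitals, read 5′ to 3′ on the gene's strand.
Fabp6, 154 bases before the start, chr10:28569863-28569889 on the minus strand: ttctccaaGGTGAATAACCttggggct
Slc51b, 115 bases before the start, chr8:74835206-74835232 on the minus strand: attcaaggGGTCATTCACCctggactg
Slc10a2, Slc51a and Nr0b2 held no match in this window, which says only that these letters are not there. A match is a description of the sequence and not a measured binding site.

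Other genes of bile acid handling were read from lists. Of 7 tested carriers and exporters other than the members, 4 were higher in enterocytes than in other epithelial classes. Of all genes 36.1% were called there, 19.2% as higher and 16.9% as lower. Among the 4 were Abcc2, an apical conjugate exporter, at a log2 fold change of 4.36 ± 0.49, Abcb1a, a drug efflux pump, at 3.05 ± 0.24, and Abcg2, an apical efflux pump, at 2.93 ± 0.37. The median of the list was 2.87, and that of all genes -0.09. Abcb1a was at 453 and 295 CPM in the enterocytes of rats 1 and 2, and Abcg2 at 261 and 185 CPM. From early to mature only Abcb1a passed, at 2.22 ± 0.50, and with the rat as a block Abcc2 and Abcg2 were also higher and Slco2b1 lower.

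Of 6 tested receptors and genes of the Fgf15 axis, 4 were higher in enterocytes, against 19.2% of all genes, with a list median of 2.21. Largest were Nr1i3, the constitutive androstane receptor, at 2.98 ± 0.65, Vdr, the vitamin D receptor, at 2.49 ± 0.45, and Malrd1 at 2.36 ± 0.61. Vdr was at 153 and 352 CPM in the enterocytes of the 2 rats, and Nr1i2, the pregnane X receptor, at 31.5 CPM in both. None of the 6 passed from early to mature in edgeR, 1 being under 0.05 unadjusted and none passing with the block. Fgfr4, a receptor of the Fgf15 axis, was lower in early enterocytes than in stem-like cells by -4.77 ± 1.09. With the block Nr1i2 and Nr1i3 were higher in the same comparison. Fgf19 had 0 UMIs, and the matrices held no gene under the symbol Fgf15, so its level could not be read.

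Of 8 tested partners and regulators of nuclear receptors, only Hnf4g, a nuclear receptor of enterocytes, was higher in enterocytes, at 3.01 ± 0.44, and the list median was 0.43. With the block 3 were higher and 1 lower, against 2413 and 2239 of all 9786 genes. Hnf4g was at 174 and 80.8 CPM and Ncor1, a corepressor, at 151 and 222 CPM in the enterocytes of the 2 rats. Of 8 tested genes of bile acid metabolism, 6 were higher, against 19.2% of all genes, with a median of 2.41. With the block 7 were higher, against the same 2413 of 9786. Largest were Cyp3a18 at 4.62 ± 0.36, Cyp27a1, the sterol 27-hydroxylase, at 3.90 ± 0.49, and Cyp3a9 at 2.94 ± 0.64. Cyp3a62 was at 209 and 401 CPM and Hsd17b4, a peroxisomal enzyme, at 198 and 245 CPM. Cyp3a62 rose from early to mature by 4.55 ± 0.75 and Cyp3a18 by 2.36 ± 0.62, and with the block Cyp3a9, Acaa1a and Hsd3b7 were also higher and Amacr lower. Cyp7a1, the rate-limiting enzyme of hepatic bile acid synthesis, had 0 UMIs in the epithelial classes.

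Among 6 tested fatty acid-binding and retinol-binding protein genes, which are relatives of Fabp6, 3 were higher in enterocytes and 2 lower. Among all genes tested 19.2% were called higher there and 16.9% lower. The 3 higher ones, Fabp1, Fabp2 and Rbp2, were also markers by which the enterocyte class was named. Their higher level there was therefore set in advance and is no finding about them. Fabp4 was at -5.57 ± 1.75, Fabp2 at 4.46 ± 0.32 and Rbp2 at 4.32 ± 0.42. Fabp1 was at 42146 and 22340 CPM and Rbp2 at 16708 and 15264 CPM in the enterocytes of the 2 rats, so neither shared the gap of Fabp6 between the rats. Of the regional genes, 2 of 3 tested distal ones were higher in enterocytes, Cubn at 5.34 ± 0.56 and Amn at 4.60 ± 0.35. Of 5 tested proximal ones 2 were higher, Lct at 4.22 ± 0.28 and Slc11a2 at 1.42 ± 0.43, with Gata4 added by the block. The share of all genes called higher was 19.2%, and with the block 2413 of 9786 genes were. Cubn and Amn, the ileal receptor for the vitamin B12 complex, were also higher in mature than early enterocytes, at 5.23 ± 0.89 and 3.11 ± 0.67. Over the 43 tested genes of these lists, 6 passed as higher and 0 as lower from early to mature in edgeR, where 6.55% of all genes were called. With the block 14 were higher and 7 lower, where 30.9% of all genes were called.

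The genes whose levels followed each member over the 18 class sums were found by Pearson correlation of log2(CPM + 1), given with no test because sums of 1 library share its depth and its free RNA. Slc51a was followed by Cyp17a1 and Dgat1, each at 0.97, and the correlation held within both rats at 0.95 or above. Slc51b was followed by Rbp2 at 0.95 and by LOC108348140 at 0.93. Nr0b2 was followed by Atp13a2 at 0.91, Scarb1 at 0.88 and Klf15 at 0.87, and Nr1h4 by Fbxl15 at 0.89 and Cited2 and Tmtc3 at 0.86. For Fabp6 the leading genes were AABR07053500.2 at 0.88 and Cox8a at 0.87, but within rat 1 and rat 2 these were 0.49 and -0.09, and 0.78 and 0.46. For the former, the value over all sums was not seen within each rat. Slc10a2, with 86 UMIs over the epithelial cells, was not compared in this way.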

How the data were processed

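Droplet 3′ libraries of jejunal epithelium from 2 rats were used. Per the labels and methods, the authors ran Cell Ranger on the rn6 build. The headers of the matrices name version 3.1.0 for rat 1 and 5.0.1 for rat 2. The values the authors deposited are raw UMI counts per gene and barcode. The 6 members and the gene lists were chosen with earlier results of these data known. Cells were retained with more than 200 and fewer than 5800 genes, over 5000 UMIs and at most 40% mitochondrial UMIs, and were integrated and clustered with Seurat 5.3.0, without the members and listed genes. Classes were named from marker genes with thresholds set after the clusters were seen. Fabp1, Fabp2 and Rbp2 were both listed genes and enterocyte markers, so they were used in the naming. Scrublet called 116 cells (1.94%) of rat 1 and 2 cells (0.0897%) of rat 2, and whether so few calls in rat 2 mean few doublets was not tested. No cell was removed. Counts were summed per rat and class into 18 sums and tested with edgeR 4.0.16 (TMM, low-count filter, adjusted p threshold of 0.05), with class as the only term. For single rats, log2 CPM (prior count 2) was subtracted between classes. The rats are the same animals in every class. Sums of a rat deviated together, with correlations of 0.0788 to 0.745 (median 0.266) over 36 class pairs, so values with the rat as a block stand beside the members' results they change. All 6 members were named, and per list the 3 called genes with the largest change in 1 direction in both rats and the 2 most abundant. A few genes that these rules name are not reported here. The fit was tested on simulated data. Alternatives included DESeq2 1.42.0, other scaling, filters, clustering and score cuts. Promoter windows came from RefSeq on GRCr8, a build other than that of the counts.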

Additional observations from a re-analysis of the deposited data

Results flagged for a closer look

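The members were also counted in the barcodes that were not retained, which enter no comparison above. In rat 1 these were 6045 barcodes, in which 3 UMIs would give 0.196 CPM. They held Fabp6 at 231.6 CPM, Slc51a at 168.8, Slc51b at 85.01, Nr0b2 at 13.09, Nr1h4 at 6.02 and Slc10a2 at 0.3926. In rat 2 these were 6022 barcodes, in which 3 UMIs would give 0.108 CPM. They held Slc51a at 151.5 CPM, Slc51b at 75.75, Nr0b2 at 14.22, Nr1h4 at 2.592 and Slc10a2 at 0.18. Fabp6 was found there with 1 UMI. Each of these 11 values lay above the level that 3 UMIs would give, and Fabp6 in rat 2 did not. What the barcodes are was not tested.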

How the results depend on the processing

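The 4 called changes of members (Slc51a, Slc51b and Nr0b2 in enterocytes against other epithelial classes, and Slc51a in early enterocytes against stem-like cells) kept direction and call under all 13 alternatives fitted to each, 52 fits in all. From early to mature enterocytes, Slc51a, Slc51b and Nr0b2 turned to -0.227, -0.0613 and -0.398 without TMM, which moved the median of all genes from -0.02 to -0.80.

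Leaving out a rat leaves no residual degrees of freedom, so these are values with no test. From early to mature, Fabp6 ranged from -1.14 to -1.13, Slc51a from -0.13 to 1.07, Slc51b from 0.43 to 0.95, Nr1h4 from -1.75 to -1.52 and Nr0b2 from -1.02 to 1.88. Slc51a and Nr0b2 were negative without replicate 1, and the value of Fabp6 in rat 2 rests on 12 and 1 UMIs. Against other epithelial classes, the ranges were 1.26 to 2.65, 4.28 to 4.70, 3.52 to 6.19, 0.30 to 1.37 and 2.69 to 3.66 in the same order. Against stem-like cells, they were 2.15 to 2.84, 3.39 to 4.50, 3.48 to 5.00, 0.58 to 1.61 and 1.91 to 2.31.

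The number of genes called from early to mature, 641, was 1359 with DESeq2, 1784 with no filter on low counts, 1558 without TMM, 3022 with the rat as a replicate block, 261 without the upper limit on genes per cell, 1844 at no more than 20% mitochondrial UMIs, 146 at cluster resolution 1.0, 223 without called doublets, 1745 with sets cut on both rats together, 387 with tip genes only and 225 without a minimum of epithelial UMIs. Fitted on the enterocyte sets alone it was 0 with edgeR, where 2420 of 9986 genes were under 0.05 unadjusted, and 1389 with DESeq2. The number from stem-like cells to early enterocytes, 1149, was 1850 with no filter, 3034 with the block and 1853 with sets cut together.

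Members also passed where they had not. From early to mature these were Fabp6 at -1.44 and Nr1h4 at -1.64 with the block, and Nr1h4 at -1.80 with sets cut together. Against other epithelial classes Fabp6 was at 3.08 with no filter and 2.70 with the block. Against stem-like cells Fabp6 was at 3.13 with no filter and 3.17 with the block. Slc51b was at 4.15 with DESeq2, 4.38 with no filter, 4.37 with the block, 5.09 at resolution 1.0, 5.13 without doublets and 4.02 with sets cut together. Nr0b2 was at 2.86 with no filter, 2.49 with the block, 3.02 at resolution 1.0, 3.02 without doublets, 2.33 with sets cut together and 3.17 without the epithelial minimum. The block changed no other call of a member. Mean enterocyte levels of Slc51b and Nr0b2 moved from 397.0 to 494.5 and from 40.14 to 50.71 CPM with mitochondrial genes left out.

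The limits are those of 2 animals, of which 1 carried nearly all Fabp6, and of depth: Slc10a2 had 81 UMIs in enterocytes, and the EEC, tuft and CHE classes of rat 1 held 21, 11 and 7 cells.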
